A study of Mus musculus with 60 samples.

Results

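Adult skeletal muscle fibres are told apart by which isoforms of the contractile proteins they build, and 10 such genes are described here across 60 mouse RNA-seq libraries. They are 4 genes of slow fibres, Myh7, Tnnt1, Tnni1 and Tnnc1, and 6 genes of fast fibres, Myh1, Myh2, Myh4, Tnnt3, Tnni2 and Tnnc2. The members were chosen as a list of named genes and were matched by symbol to the Ensembl identifiers of the deposited table, where all 10 were present among 52636 genes. Raw counts were deposited for 6 tissues with 10 libraries each, and the tests below use skeletal muscle, skin and lung.

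The libraries came from old mice of 2 genotypes with or without doxycycline in the drinking water. The 4F mice carried 1 copy of a polycistronic cassette of Oct4, Sox2, Klf4 and c-Myc and the rtTA transactivator at R26, both heterozygous on a C57BL/6 background, so the untreated 4F controls carried both transgenes as well. Treated 4F mice received 1 mg/ml doxycycline in cycles of 2 days on and 5 days off per week, for 10 months from 12 months of age, and both 4F arms were 22 months old. There were 3 treated 4F libraries per tissue, of which replicate 1 was labelled male and replicates 2 and 3 female, and 3 untreated ones, of which replicates 1 and 2 were labelled female and replicate 3 male. The B6 mice were C57BL/6 without the cassette, all labelled male, with 2 treated and 2 untreated libraries per tissue. The labels give all B6 mice an age of 25 months, whereas the series text gives 26 months for the untreated ones. The series text gives B6 mice 5 months of doxycycline from 20 months of age, whereas the labels' protocol names 10 months and describes the B6 treatment as induction of the cassette. Genotype therefore cannot be told apart from age and length of treatment. The B6 effect of doxycycline rests on males alone and the 4F effect on both sexes, so their difference is not free of sex either. The labels do not say which muscle was sampled, nor that the libraries of an arm came from separate animals, so p-values measure the spread between libraries.

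A myosin heavy chain is the motor of the thick filament, and its isoform sets how fast a fibre shortens. Myh7 encodes the slow chain of type I fibres, Myh2 that of type IIA, Myh1 that of type IIX and Myh4 that of type IIB, the fastest. The troponin complex sits on the thin filament and couples calcium to contraction: troponin C binds calcium, troponin I blocks the actin-myosin contact at rest, and troponin T ties the complex to tropomyosin. Slow fibres use the Tnnc1, Tnni1 and Tnnt1 products and fast fibres the Tnnc2, Tnni2 and Tnnt3 products. Myh7 and Tnnc1 are also genes of heart muscle, which in mice extends along the pulmonary veins into the lung.

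The fast myosins lie beside each other on chromosome 11 of GRCm38 and share sequence, which bears on how their reads can be assigned. In the GENCODE vM21 annotation Myh2 spans 67171027 to 67197517, Myh1 67200052 to 67224575 and Myh4 67238029 to 67260446, all on the plus strand. The 250 bases before the start of each, from RefSeq (GRCm38.p6), are shown because they hold a run of 20 bases found in all of them, written in capitals; relative to the RefSeq start it begins at -165 in Myh1, -130 in Myh2 and -163 in Myh4. The windows are chr11:67170777-67171026, plus strand; chr11:67199852-67200101, plus strand; and chr11:67237562-67237811, plus strand.
Myh2: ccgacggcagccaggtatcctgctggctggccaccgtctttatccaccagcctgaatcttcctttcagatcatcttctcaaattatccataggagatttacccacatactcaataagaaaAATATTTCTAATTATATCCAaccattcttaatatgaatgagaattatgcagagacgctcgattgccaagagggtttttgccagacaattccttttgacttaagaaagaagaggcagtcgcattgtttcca
Myh1: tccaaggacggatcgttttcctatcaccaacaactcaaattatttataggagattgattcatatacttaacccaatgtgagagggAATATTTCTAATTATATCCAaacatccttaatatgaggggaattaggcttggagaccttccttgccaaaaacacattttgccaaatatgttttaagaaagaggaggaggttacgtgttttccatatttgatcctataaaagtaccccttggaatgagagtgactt
Myh4: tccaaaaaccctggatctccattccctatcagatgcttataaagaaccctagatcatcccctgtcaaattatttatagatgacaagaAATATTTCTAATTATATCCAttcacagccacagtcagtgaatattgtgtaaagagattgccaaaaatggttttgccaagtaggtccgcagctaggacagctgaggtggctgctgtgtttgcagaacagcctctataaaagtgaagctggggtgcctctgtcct
That run, on either strand, was present in the same window of 3 of 27025 genes in the table, which is 0.0111% and comprises these genes alone. The run was picked as the longest stretch common to these windows, so this share is a description and not a test. Of the 50-base windows in the annotated Myh1 transcripts, 18.7% also occur in Myh2 and 10.0% in Myh4, and 10.6% of those of Myh4 occur in Myh1. How the authors' counting treated such reads is not given in the sources used here, so the split among the fast myosins is uncertain. Myh7 shares at most 0.113% of its windows with any of them, but 15.6% with Myh6, the main heart myosin of adult mice. The troponin genes shared no 50-base window with another member. For 6 of the 10 members, Myh7, Tnnc1, Myh1, Myh2, Tnnt3 and Tnnc2, the annotation has a gene on the opposite strand that overlaps them, and whether the counting used strand is not given in the sources used here, so their reads and those of that partner may not be separated.

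The slow genes lie on other chromosomes: in the same annotation Myh7 spans 54970684 to 54994626 and Tnnc1 31208312 to 31211729 on chromosome 14, Tnnt1 spans 4504570 to 4516382 on chromosome 7, and Tnni1 spans 135779434 to 135810989 on chromosome 1. Of the fast troponins, Tnni2 (142441808 to 142444410) and Tnnt3 (142498836 to 142516009) are near each other on chromosome 7, and Tnnc2 lies on chromosome 2 (164777161 to 164779967). The windows before the RefSeq start of the slow troponins are shown because these genes kept close to one order across the muscle libraries, as described below; capitals mark the E-box letters CANNTG, the motif that MyoD-family factors bind, which reads the same on both strands. They are chr7:4515976-4516225, minus strand; chr1:135799171-135799420, plus strand; and chr14:31208062-31208311, plus strand.
Tnnt1: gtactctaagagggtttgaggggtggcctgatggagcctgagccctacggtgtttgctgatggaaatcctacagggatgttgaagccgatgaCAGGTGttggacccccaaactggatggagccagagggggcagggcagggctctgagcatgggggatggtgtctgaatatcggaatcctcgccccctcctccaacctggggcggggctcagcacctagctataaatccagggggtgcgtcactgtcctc
Tnni1: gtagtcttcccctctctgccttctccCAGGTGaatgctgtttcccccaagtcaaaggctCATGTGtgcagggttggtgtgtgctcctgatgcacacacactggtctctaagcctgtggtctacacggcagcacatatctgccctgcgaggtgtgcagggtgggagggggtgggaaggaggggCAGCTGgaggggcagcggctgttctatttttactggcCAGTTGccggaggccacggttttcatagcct
Tnnc1: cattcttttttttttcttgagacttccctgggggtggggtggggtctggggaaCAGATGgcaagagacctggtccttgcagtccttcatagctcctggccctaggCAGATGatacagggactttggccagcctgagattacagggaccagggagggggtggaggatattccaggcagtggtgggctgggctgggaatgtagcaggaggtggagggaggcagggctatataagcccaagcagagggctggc
Tnni1 had 4 such matches, Tnnc1 2 and Tnnt1 1, whereas 66.0% of the 27025 windows had at least 1 and 12.1% had 3 or more. For Tnni1 the RefSeq table held 2 starts, and the first listed was used. The windows of Tnni1 and Tnnt1 lie inside the annotated spans of these genes given above, so the matches belong to those RefSeq starts alone. The RefSeq table held windows for 8 of the 10 members and none for Tnnt3 and Tnni2.

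Several libraries stood apart. Totals were 22592309 to 42569314 counts in muscle, 20518115 to 43176392 in skin and 18517963 to 36297925 in lung. In muscle, untreated 4F replicate 3 held 2059 CPM (counts per 1000000 of the library total) of summed macrophage markers against 10.4 to 55.3 CPM in the other 9 libraries, and it carried both Xist at 185 CPM and Ddx3y at 79.4 CPM, although labelled male. In skin, untreated 4F replicate 1 held 4434 CPM of kidney tubule markers and, although labelled female, 9.32 CPM of the Y-linked Ddx3y, while untreated B6 replicate 1, labelled male, held 10.2 CPM of Xist against at most 1.61 CPM in the other skins labelled male. In lung, untreated 4F replicate 2 held 97.0 CPM of Krt5, a keratinocyte gene, against at most 1.71 CPM in the other 9. Also in lung, treated B6 replicate 1 and untreated B6 replicate 2 were closer to each other than any other pair, with a mean chi-square per gene of 6.62, and untreated 4F replicate 3 and untreated B6 replicate 1 came next with 17.1, against 106 to 385 for pairs of the same arm. Both values were above the 1 that sampling noise gives, so no library was merged, and whether these pairs share tissue was not tested.

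Muscle RNA was almost wholly of the fast type. The defining genes of skeletal muscle were high in every muscle library, with Acta1 at 18970 to 38820 CPM and Ckm, muscle creatine kinase, at 13530 to 29120 CPM. The 6 fast genes together took 7.77% to 9.88% of all counts in the 10 muscle libraries, whereas the 4 slow genes took 0.000844% to 0.0495%. Per kilobase of exon, the median levels in CPM per kb were 14460 for Tnnt3, 13370 for Tnnc2, 8038 for Tnni2, 5382 for Myh4, 921 for Myh1 and 103 for Myh2. The slow genes followed with 14.6 for Tnnc1, 7.54 for Tnnt1, 3.06 for Tnni1 and 2.79 for Myh7. The lowest Myh2 library, at 34.0 CPM per kb, lay below the highest Tnnc1 library, at 108 CPM per kb, and most neighbours in this order overlapped in the same way. The exceptions were Myh4, whose lowest value of 3729 lay above the highest Myh1 value of 3486, and Myh1, whose lowest value of 486 lay above the highest Myh2 value of 262 CPM per kb.

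Among the 4 adult myosins of muscle, Myh4 made up most of the message. Its share of the summed CPM per kb had a median of 85.2% over the 10 libraries, from 60% to 91.8%. Myh1 had a median share of 13.3%, Myh2 of 1.35% and Myh7 of 0.0471%. The library with the lowest Myh4 share was untreated 4F replicate 2, in which Myh1 reached 38.7%. Dividing by the length of the principal transcript in place of all exons gave 84.4% for Myh4 and 13.7% for Myh1.

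**Figure D1:**
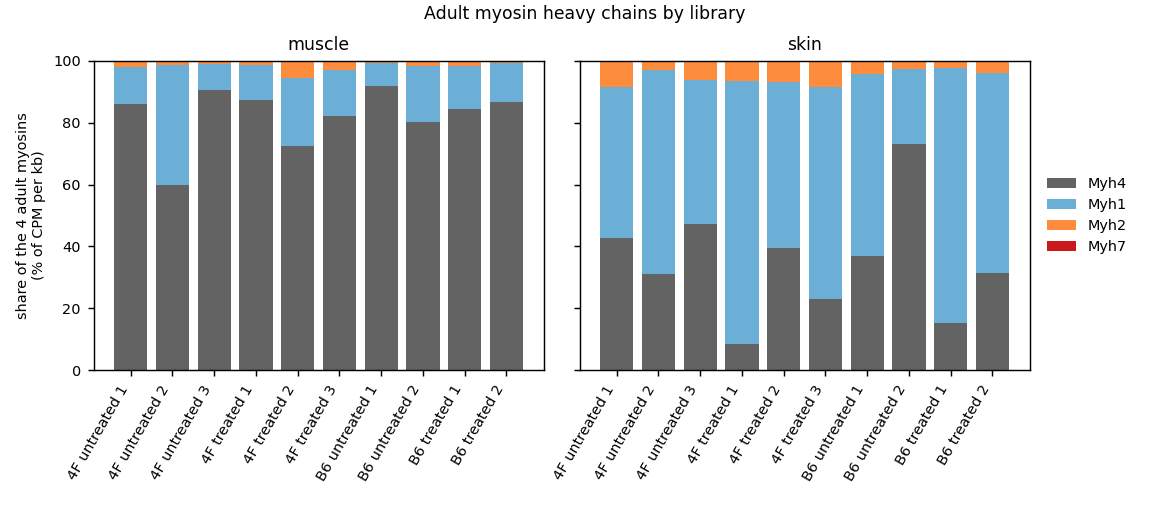
Share of each adult myosin heavy chain (percent of the summed CPM per kb, vertical axis) in each of the 10 muscle libraries (left) and 10 skin libraries (right), as stacked bars from 0 to 100. Myh4 fills 60% to 91.8% of the muscle bars, Myh1 fills 24.4% to 85.1% of the skin bars, and Myh7 is too small to see in either.

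The slow genes were highest in the same libraries of muscle. Myh7 stood at 13.7, 178 and 160 CPM in treated 4F replicates 1 to 3 and at 27.5, 54.6 and 20.6 CPM in untreated 4F replicates 1 to 3. In B6 muscle it stood at 16.9 and 1.47 CPM with doxycycline and at 1.91 and 60.03 CPM without. The treated 4F females were thus the highest of all 10, the treated 4F male lay below every untreated 4F library, and all arms overlapped.

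Tnnt1, slow troponin T, stood at 5.11, 118 and 70.0 CPM in the treated and 17.9, 19.6 and 4.49 CPM in the untreated 4F muscle. Tnni1, slow troponin I, stood at 3.32, 86.5 and 57.6 CPM in the treated and 11.1, 15.7 and 2.96 CPM in the untreated 4F muscle. Tnnc1, the slow and cardiac troponin C, stood at 5.85, 113 and 70.0 CPM in the treated and 16.1, 22.4 and 4.44 CPM in the untreated 4F muscle. For each of these genes treated 4F replicates 2 and 3 ranked 1 and 2 of the 10 muscle libraries, untreated B6 replicate 2 ranked 3, and untreated 4F replicates 2 and 1 ranked 4 and 5, as they did for Myh7. The lowest of the 10 was untreated B6 replicate 1 for the troponins and treated B6 replicate 2 for Myh7. In bulk RNA, fewer slow fibres and less slow RNA per fibre cannot be told apart.

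No fibre gene passed the test for doxycycline in 4F muscle, although the slow genes had the larger fitted values. In the model of all 10 libraries with arm and sex (edgeR quasi-likelihood, Benjamini-Hochberg adjusted p under 0.05 over 16427 genes), 0 of the 10 members were called, and 1 gene of all those tested was called, which is 0.00609%. At an unadjusted p under 0.05, 1 of 10 members passed, Myh2, beside 9.19% of all genes, and DESeq2 called 0 members and 86 genes (0.524%). The 4 slow genes had fitted log2 fold changes of 1.31 ± 1.26 (SE) for Myh7, 1.74 ± 0.83 for Tnnt1, 1.82 ± 0.86 for Tnni1 and 1.75 ± 0.94 for Tnnc1. Their adjusted p in edgeR lay between 0.559 and 0.695, and their median of 1.74 stood beside -0.04 for all genes tested. The slow genes share libraries and moved together across them, so their 4 values are not separate pieces of evidence.

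Without each library in turn these values ranged from 0.79 to 2.09 for Myh7, 1.35 to 2.35 for Tnnt1, 1.48 to 2.46 for Tnni1 and 1.41 to 2.27 for Tnnc1. The lowest value of Myh7 came without untreated 4F replicate 1 and that of Tnnt1 without treated 4F replicate 2. The highest values came without untreated 4F replicate 3, the 4F male with the macrophage markers. Without treated 4F replicate 1, the other male, they were 2.06 for Myh7, 2.33 for Tnnt1, 2.43 for Tnni1 and 2.25 for Tnnc1. With a sex term and 1 male per 4F arm, either omission leaves the contrast to the 4F females. These values and the females-only ones below are therefore not separate results.

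Leaving out both 4F males, which leaves 2 treated against 2 untreated 4F females, gave log2 fold changes of 2.09 for Myh7, 2.35 for Tnnt1, 2.46 for Tnni1 and 2.27 for Tnnc1, with adjusted p of 0.608 to 0.656 in edgeR. Within the 4F females every treated value of the slow genes lay above every untreated one. The share of all genes that separate these females was not counted. In B6 muscle, also with 2 libraries per arm, 21.8% of all genes had the treated arm wholly higher. The treated females also held 424 and 245 CPM of summed hepatocyte markers, Alb at 249 and 165 CPM among them, against 0.192 to 66.3 CPM in the other 8 libraries. In the 4F contrast 7 of 7 hepatocyte markers were above 0 with a median of 3.34, as were 6 of 6 adipocyte markers (median 1.66) and 4 of 4 B cell markers (median 2.03), of which 2, 4 and 2 had an unadjusted p under 0.05. Summed adipocyte markers stood at 228, 58.0 and 82.3 CPM in treated 4F replicates 1 to 3 and at 19.9, 13.4 and 205 CPM in untreated ones, so the treated females lay above the untreated females here too. The part of these markers in the result was not tested.

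Of the fast myosins, Myh2 alone separated the 4F arms of muscle. It stood at 864, 1871 and 1399 CPM in the treated and 794, 802 and 677 CPM in the untreated libraries, so that the lowest treated library lay just above the highest untreated one. Treated arms lay wholly above untreated ones for 3.49% of all genes tested. The fitted log2 fold change of Myh2 was 0.89 ± 0.37 (SE), with an adjusted p of 0.54 in edgeR. Without each library in turn it lay between 0.75 and 1.06 and was not called.

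Myh1, the IIX myosin, stood at 7279, 7275 and 6896 CPM in the treated and 4807, 22150 and 4807 CPM in the untreated 4F muscle. The fitted log2 fold change was -0.32 ± 0.61 (SE), and it became 0.66 without untreated 4F replicate 2, the library highest in Myh1, which also held 199 CPM of keratinocyte markers. Myh4, the IIB myosin, stood at 51920, 22440 and 35780 CPM in the treated and 32230, 32530 and 49210 CPM in the untreated 4F muscle. The 2 highest Myh4 values were those of the 4F males, one from each arm. Its fitted log2 fold change was 0.02 ± 0.30 (SE), which turned to -0.08 with scaling by library totals alone, a scaling that moved the median of all genes to -0.12.

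The 4F arms overlapped for all fast troponins. Tnnt3 ranged from 16810 to 21850 CPM in treated and from 13590 to 25630 CPM in untreated libraries, Tnni2 from 8881 to 12730 and from 5989 to 12050 CPM, and Tnnc2 from 8022 to 11580 and from 5349 to 10820 CPM. Untreated 4F replicate 3, the library with the macrophage markers, was the lowest of the 4F libraries for all of them. The fitted log2 fold changes were 0.09 ± 0.25 (SE) for Tnnt3, 0.28 ± 0.26 for Tnni2 and 0.56 ± 0.34 for Tnnc2, none called. The value for Tnnt3 turned to -0.11 without that library and to -0.14 without treated 4F replicate 1.

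**Figure D2:**
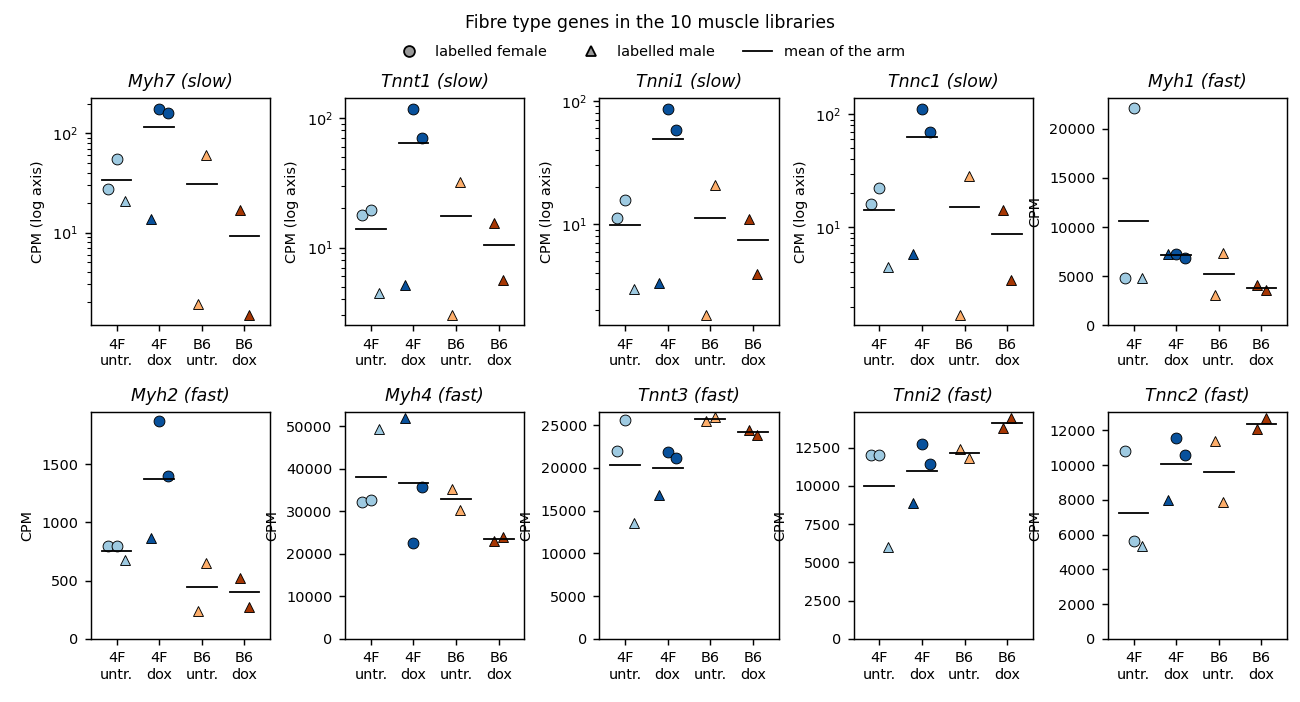
CPM of the 10 fibre genes in the 10 muscle libraries (vertical axes: log scale for the 4 slow genes, linear from 0 for the 6 fast genes), by arm, with circles for libraries labelled female, triangles for those labelled male and a line at the mean of each arm. The treated 4F females lie highest for all 4 slow genes (Myh7 178 and 160 CPM), while the 4F males of both arms lie low (13.7 and 20.6 CPM).

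In B6 mice doxycycline was given without the cassette. None of the 10 members was called in muscle, nor was any of the 16427 genes tested (0%); 0 members and 6.18% of genes passed an unadjusted p under 0.05, and DESeq2 called 14 genes (0.0852%) and 0 members. All 4 slow genes had fitted log2 fold changes below 0, from -1.66 ± 1.47 (SE) for Myh7 to -0.51 ± 0.98 for Tnni1. These signs rested on untreated B6 replicate 2: without it the values became 2.21 for Myh7, 1.75 for Tnnt1, 1.97 for Tnni1 and 2.34 for Tnnc1. That library held 60.03 CPM of Myh7, 32.0 CPM of Tnnt1, 20.6 CPM of Tnni1 and 28.7 CPM of Tnnc1, whereas the other untreated B6 muscle held 1.91, 3.02, 1.83 and 1.68 CPM.

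Among the fast genes of B6 muscle, Myh4 stood at 23080 and 23870 CPM with doxycycline against 35270 and 30400 CPM without, and Tnnt3 at 24410 and 23870 against 25420 and 25940 CPM. Tnni2 stood at 13780 and 14430 CPM against 12440 and 11810, and Tnnc2 at 12070 and 12710 against 11400 and 7854 CPM. The arms did not overlap for these 4 genes, of which 2 were lower and 2 higher with doxycycline. With 2 libraries per arm, 22.5% of all genes had the treated arm wholly lower and 21.8% wholly higher. The fitted log2 fold change of Myh4 was -0.46 ± 0.36 (SE) and that of Tnnt3 -0.06 ± 0.31, those of Tnni2 and Tnnc2 0.24 ± 0.31 and 0.38 ± 0.41, and Myh1 and Myh2 overlapped between arms.

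The effect of doxycycline in 4F mice minus that in B6 mice was tested directly. The sex term is the same for all arms, so a doxycycline effect that differs by sex would enter this difference. No member and no gene of muscle was called for this difference in edgeR (0%); 0 members and 3.94% of genes passed an unadjusted p under 0.05, and DESeq2 called 39 genes and 0 members. The member with the smallest p was Tnnt1, with a difference of 2.39 ± 1.27 (SE) on the log2 scale and an adjusted p of 0.999. It became -0.01 without untreated B6 replicate 2.

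Slow-to-fast ratios within a library do not depend on its scaling. The slow form made up at most 0.386% of troponin T (Tnnt1 with Tnnt3, CPM per kb), 0.282% of troponin I, 0.741% of troponin C and 0.401% of the adult myosins in any muscle library, and each maximum fell in treated 4F replicate 2. For troponin T the slow share was 0.0218%, 0.386% and 0.237% in treated and 0.0585%, 0.0548% and 0.0237% in untreated 4F muscle. For troponin I it was 0.0156%, 0.282% and 0.210% in treated and 0.0384%, 0.0541% and 0.0206% in untreated 4F muscle. In B6 muscle the slow share of troponin T was 0.0453% and 0.0169% with doxycycline and 0.00852% and 0.0884% without. The arms overlapped in both genotypes for all 4 ratios.

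As mean log2 ratios, the treated 4F arm exceeded the untreated one by 1.58 for troponin T, 1.48 for troponin I, 1.08 for troponin C and 1.37 for Myh7 over the summed fast myosins, with pooled SDs between libraries of 1.64 to 1.85 (n = 3 per arm). Each of these differences was smaller than its pooled SD, which takes in the spread between the sexes of an arm. Between the 4F females alone (n = 2 per arm) the differences were 2.42, 2.42, 1.72 and 2.42 in the same order. In B6 muscle the differences were 0.01, -0.13, -0.38 and -0.63, with pooled SDs of 1.83 to 3.06 (n = 2 per arm). No p was computed for the ratios, since the members were chosen with earlier results known.

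Other genes of slow and fast fibres were counted from fixed lists. Of 13 other slow fibre genes, such as the slow light chains and the slow calcium pump, 12 had a log2 fold change above 0 in treated 4F muscle, with a median of 0.53, and 0 were called. Myl2, the slow regulatory light chain, stood at 12.9, 285 and 179 CPM in the treated and 45.1, 27.2 and 19.0 CPM in the untreated libraries, the order of arms and sexes seen for Myh7. Smpx, a small cytoskeletal protein of muscle, had a log2 fold change of 0.53 ± 0.19 (SE) and Casq2, the calcium buffer of slow and cardiac fibres, 0.43 ± 0.18, each with an adjusted p of 0.54 in edgeR. Of 13 other fast fibre genes 10 were above 0, with a median of 0.39 and 0 called; Myoz1, Myl1 and Pvalb had the smallest p among them, with 0.39 ± 0.24, 0.75 ± 0.50 and 0.87 ± 0.60. Of 13 sarcomere genes that both fibre types use 7 were above 0, with a median of 0.08. All 3 satellite cell markers were above 0, Chodl with 1.00 ± 0.29 (SE; adjusted p 0.54 in edgeR), and 2 of 8 denervation markers were, with 0 called in either list.

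Of 20 regulators of fibre type 11 were above 0 in treated 4F muscle and 0 were called, with a median of 0.05 beside -0.04 for all genes. Prox1, a factor needed for the slow programme in mouse muscle, had 1.28 ± 0.47 (SE) from levels of 0.540 to 2.70 CPM, and Ppargc1a, a coactivator of oxidative fibres, had 0.55 ± 0.20, from 46.8 to 56.5 CPM in treated and 25.7 to 47.3 CPM in untreated 4F muscle. In B6 muscle 4 of 13 other slow and 8 of 13 other fast fibre genes were above 0, with medians of -0.34 and 0.27 and 0 called. Myl3, the slow and ventricular essential light chain, was among the former with 1.83 ± 0.54, and Mstn, the gene of myostatin, among the latter with -0.86 ± 0.28, both with an adjusted p of 0.762 in edgeR.

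The genes most like the slow members across the 10 muscle libraries were listed as a description, by Pearson's r of log2(CPM + 1) with the mean of the 4 slow genes among 7944 genes. They were Csrp3 (r = 0.96), a muscle LIM protein, Myl2 (0.946), Smtnl1 (0.92), Plin5 (0.913), a lipid droplet protein, and Slc25a34 (0.904). The genes most like the mean of the 6 fast members were Myoz2 (0.919), Aldh7a1 (0.918), Lrg1 (0.911), Hspa1l (0.895) and Tmem52 (0.891). Myoz2, which is a Z-disc protein of slow fibres, thus followed the fast mean here; it was highest in untreated 4F replicate 2, at 229 CPM, the library with the highest Myh1. The points share arms, sex and the libraries that stood apart.

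**Figure D3:**
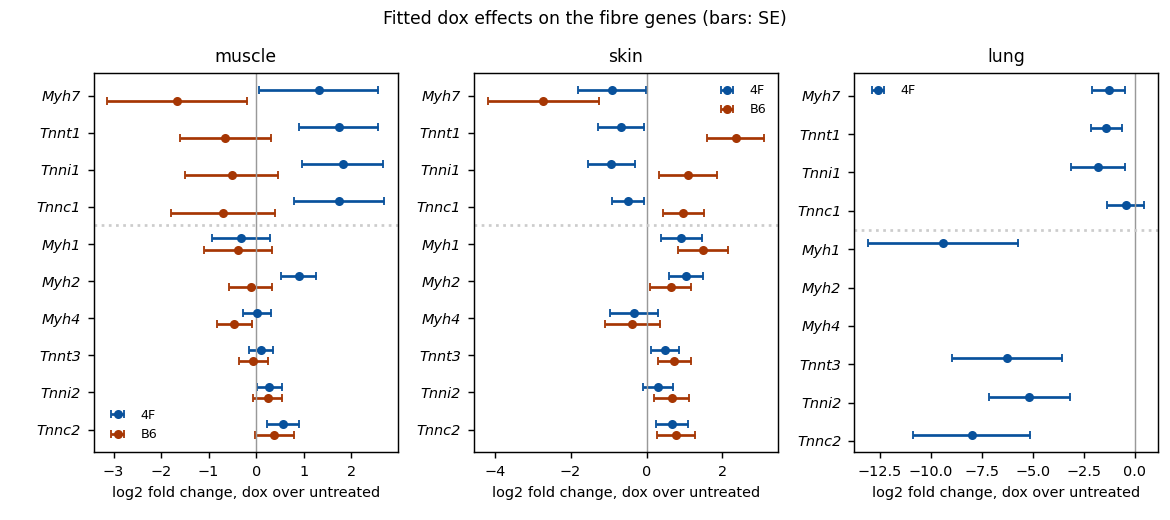
Fitted log2 fold changes of doxycycline over untreated (horizontal axes, bars: SE from edgeR) for the 4 slow genes (above the dotted line) and 6 fast genes (below it) in muscle, skin and lung, in 4F mice (blue) and, for muscle and skin, B6 mice (brown). In muscle the slow genes lie at 1.31 to 1.82 in 4F and -1.66 to -0.51 in B6 mice with wide bars, in skin they lie below 0 in 4F mice, and in lung the fast genes reach the lowest values; Myh4 of lung, with an arm at 0, and the untested Myh2 are not drawn there.

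The fitted sex differences of the slow genes in muscle were larger in size than their doxycycline effects, a contrast that was not tested. The comparison of males with females, added after the values were seen, rests within each tissue on the 4F libraries, since all B6 mice were male. In muscle Tnni1, Tnnt1, Tnnc1 and Myh7 had log2 differences, male minus female, of -3.30 ± 1.03 (SE), -3.13 ± 1.00, -3.07 ± 1.13 and -2.23 ± 1.43. None was called in edgeR (adjusted p 0.108 to 0.339), where 18 of 16427 genes were (0.11%; 0.0791% higher and 0.0304% lower in males) and 28.2% of genes passed an unadjusted p under 0.05. Both 4F males bear on these values: without untreated 4F replicate 3, which carried Xist and the macrophage markers, they were -4.43 for Tnni1, -4.19 for Tnnt1, -3.96 for Tnnc1 and -3.62 for Myh7, and without treated 4F replicate 1 they were -2.39, -2.28, -2.33 and -1.20. With 1 male per 4F arm, the former are the sex differences within the treated arm and the latter those within the untreated arm. DESeq2 called 2862 genes (17.4%), among them Tnnt1, Tnni1, Tnnc1, Tnnt3 and Tnni2.

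Markers of other cell types differed between the sexes of 4F muscle as well. Of 7 hepatocyte markers 0 were higher in males (median -5.81, 6 with an unadjusted p under 0.05), as were 0 of 5 endothelial (median -0.90, 5 under 0.05) and 0 of 6 smooth muscle markers (median -1.57, 4 under 0.05). All 6 adipocyte (median 3.05, 5 under 0.05), all 5 macrophage (median 5.47, 4 under 0.05) and all 4 B cell markers (median 2.75, 2 under 0.05) were higher in males. Summed adipocyte markers stood at 228 and 205 CPM in the 4F males against 13.4 to 82.3 CPM in the 4F females, and endothelial markers at 228 and 179 against 319 to 438 CPM. Macrophage markers stood at 55.3 and 2059 CPM in the males, the latter in untreated 4F replicate 3, against 10.4 to 47.9 CPM in the females, and hepatocyte markers at 2.81 and 1.57 against 0.192 to 424 CPM. The part of these markers in the result was not tested.

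Skin held skeletal muscle RNA in every library. The 6 fast genes took 3.16% to 7.12% of all counts in skin, and Acta1, skeletal actin, stood at 15290 to 39320 CPM, while keratinocyte markers summed to 363 to 14720 CPM. Among the adult myosins Myh1 led, with a median share of 61.7% (24.4% to 85.1%), followed by Myh4 with 34.2% (8.57% to 73.0%) and Myh2 with 5.26% (2.41% to 8.43%). In muscle the share of Myh1 did not exceed 38.7%, so the ranges of skin and muscle overlapped. Untreated B6 replicate 2 of skin, with Myh4 at 73.0% and Myh1 at 24.4%, lay within the muscle ranges of both, and no test between the tissues was run. The labels do not name the skin site or layers.

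The slow genes of skin separated the labelled sexes. Myh7 stood at 45.6 and 20.6 CPM in the treated and 48.6 and 68.0 CPM in the untreated 4F females, at 0.00 and 0.295 CPM in the treated and untreated 4F male, and at 0.0370 to 1.09 CPM in the 4 B6 males. The count of 0 in the treated male allows up to 0.146 CPM. Tnnc1 stood at 16.6 and 6.26 CPM in the treated and 16.3 and 24.5 CPM in the untreated 4F females, against 0.244 and 0.321 CPM in the 4F males and 0.370 to 0.792 CPM in the B6 males. For both genes every female library lay above every male one. The share of all genes that separate the sexes in this way was not counted. The 4 B6 males also differ from the females in genotype and age.

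Tnnt1 stood at 18.5 to 41.3 CPM in the 4F females, 1.37 and 6.08 CPM in the 4F males and 0.963 to 9.08 CPM in the B6 males, again without overlap. Tnni1 stood at 5.58 to 24.0 CPM in the females, 0.634 and 3.75 CPM in the 4F males and 0.919 to 1.90 CPM in the B6 males. The fitted differences, male minus female, were -8.43 ± 1.40 (SE) for Myh7, -5.95 ± 0.60 for Tnnc1, -3.39 ± 0.77 for Tnni1 and -3.25 ± 0.74 for Tnnt1. Tnnc1 was called, with an adjusted p of 0.0191 in edgeR; 30 of 18596 genes were called (0.161%), 29 of them higher in males (0.156%) and Tnnc1 as the only one lower (0.00538%). An unadjusted p under 0.05 was reached by 5.87% of genes.

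The call for Tnnc1 was lost without treated 4F replicate 1, 2 or 3 or untreated 4F replicate 2 or 3 (adjusted p in edgeR of 0.562, 0.103, 0.0975, 0.0605 and 0.766), and with only the 4F libraries (0.212). The difference itself lay between -6.17 and -5.61 without each library. The call stood without untreated 4F replicate 1 (adjusted p 0.024) and without untreated B6 replicate 1 (0.0185), the libraries with Ddx3y or Xist against their label. Without untreated B6 replicate 1 Myh7 was called too (adjusted p in edgeR 0.0279). It was likewise called without untreated B6 replicate 2 (0.0297), which held only 0.125 CPM of Xist. Myh7, Tnni1 and Tnnt1 had adjusted p of 0.108, 0.28 and 0.287 in edgeR and were called by DESeq2, as was Tnnc1, among 303 genes (1.63%). The 6 fast genes differed by -1.24 to -0.47, with an adjusted p of 0.998 each in edgeR.

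**Figure D4:**
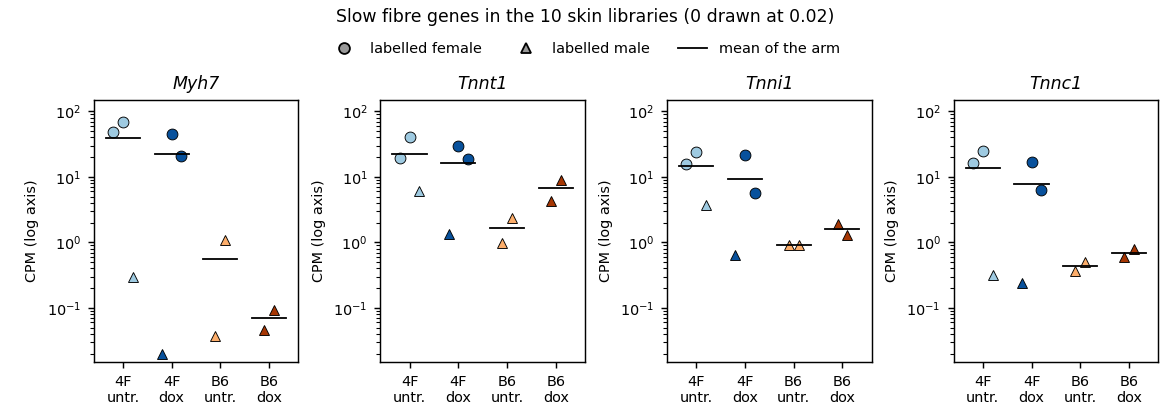
CPM (log axis, 0 drawn at 0.02) of the 4 slow fibre genes in the 10 skin libraries by arm, with circles for libraries labelled female, triangles for those labelled male and a line at the mean of each arm. The 4 female libraries, all 4F, lie above all 6 male libraries for each gene, as for Tnnc1 with 6.26 to 24.5 against 0.244 to 0.792 CPM.

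No member passed the test for doxycycline in 4F skin: 0 of 10 members and 0 of 18596 genes (0%) were called in edgeR, 0 members and 12.4% of genes passed an unadjusted p under 0.05, and DESeq2 called 609 genes (3.27%) and 0 members. The slow genes had log2 fold changes of -0.93 ± 0.63 (SE) for Tnni1, -0.90 ± 0.90 for Myh7, -0.66 ± 0.61 for Tnnt1 and -0.48 ± 0.42 for Tnnc1, the opposite sign to those of 4F muscle. Without each library in turn their values nearest to 0 were -0.28 for Tnni1, -0.52 for Myh7, -0.04 for Tnnt1 and -0.12 for Tnnc1. Those of Tnni1, Myh7 and Tnnt1 came without either of the 4F males, and that of Tnnc1 without treated 4F replicate 3. Among the 4F females, the treated and untreated libraries overlapped for the slow troponins, while for Myh7 both treated values lay below both untreated ones. Of the 6 fast genes 5 had values above 0, with Myh2 at 1.04 ± 0.45 and Myh1 at 0.92 ± 0.54, and Myh4 had -0.33 ± 0.63. All 13 shared sarcomere genes were above 0 here as well, with a median of 0.87 beside -0.07 for all genes and 8 with an unadjusted p under 0.05, while 0 of 5 keratinocyte markers were (median -2.35, 3 under 0.05). Summed keratinocyte markers stood at 5012, 2299 and 363 CPM in treated 4F replicates 1 to 3 and at 1082, 14720 and 13080 CPM in untreated ones, and their part in the fast gene values was not tested. Without untreated 4F replicate 1, the library with the kidney markers, edgeR called 692 genes in 4F skin, 0 members among them.

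In B6 skin 7 of 10 members had the treated arm wholly above the untreated one, beside 13.3% of all genes in that direction and 45.4% in the other, and 0 members and 0 genes (0%) were called in edgeR. Tnnt1 stood at 4.26 and 9.08 CPM with doxycycline and at 0.963 and 2.34 CPM without, a fitted log2 fold change of 2.35 ± 0.76 (SE; adjusted p 0.63 in edgeR), the 1 member with an unadjusted p under 0.05, which 7.87% of genes had. Myh1 stood at 24110 and 21070 CPM against 14270 and 5039 CPM, a log2 fold change of 1.49 ± 0.67. Myh4 went the other way in size, from 8498 and 14250 CPM to 4255 and 9720 CPM, with overlapping arms and -0.37 ± 0.72. The 13 shared sarcomere genes were all above 0 with a median of 1.03 beside -0.07 for all genes, so a larger share of muscle RNA and a change within muscle cannot be told apart by the level of a gene.

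The slow share of troponin T in B6 skin was 0.0166% and 0.0338% with doxycycline and 0.00519% and 0.0115% without, and that of troponin I was 0.00793% and 0.00498% against 0.00457% and 0.00493%. As mean log2 ratios the treated arm exceeded the untreated one by 1.62 for troponin T, 0.40 for troponin I and 0.17 for troponin C, and Myh7 over the fast myosins differed by -2.08, with pooled SDs of 0.77, 0.34, 0.45 and 2.59 (n = 2 per arm). The arms overlapped for troponin C and the myosins and not for troponins T and I. The ratios rest on few slow reads, for Tnni1 on 22 to 82 counts per library. In CPM, 13.3% of all genes in B6 skin had the treated arm wholly higher and 45.4% wholly lower. No such share was counted for ratios. The difference between the 4F and B6 effects in skin was largest in test size for Tnnt1, at -3.01 ± 0.96 (SE) on the log2 scale, with an adjusted p of 1 in edgeR. No member and no gene was called for it (0%), 1 member and 3.25% of genes passed an unadjusted p under 0.05, and DESeq2 called 66 genes and 0 members.

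Lung held traces of both fibre programmes. Myh4 had 0 counts in all 3 treated 4F lungs and stood at 6.96, 67.3 and 8.10 CPM in the untreated ones. In B6 lungs it stood at 0.441 and 33.5 CPM with doxycycline and 10.0 and 0.441 CPM without. With the treated 4F arm set at 3 counts over its libraries together, 0.0312 CPM, Myh4 was at least 680-fold lower there than in the untreated arm, and at least 241-fold lower without untreated 4F replicate 2, which held most of the untreated counts. The 10 lungs thus fell into 5 with Myh4 at 6.96 CPM or more and 5 with at most 0.441 CPM, and the treated 4F lungs were all among the latter. Of the near pairs named above, treated B6 replicate 1 and untreated B6 replicate 2 were both low. Untreated 4F replicate 3 and untreated B6 replicate 1 were both high, so these 10 values may not be separate.

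The other fast genes followed Myh4. Tnnc2 stood at 0.285, 0.270 and 0.114 CPM in the treated and 2.64, 344 and 3.02 CPM in the untreated 4F lungs, and Tnnt3 at 3.28, 1.00 and 1.76 CPM against 5.97, 692 and 8.47 CPM. Tnni2 stood at 1.97, 2.97 and 1.39 CPM against 5.47, 423 and 6.11 CPM, and Myh1 at 0.285, 0.0772 and 0.0284 CPM against 0.590, 627 and 2.03 CPM. Myh2 stood at 0 to 0.636 CPM in all lungs and was not tested. For the 5 fast genes tested the treated 4F arm lay wholly below the untreated one, as it did for 8.35% of all genes.

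None of the 9 members tested was called in 4F lung, where 0 of 19289 genes were called by edgeR (0%) and 6.04% passed an unadjusted p under 0.05, among them these 5 fast genes. Their adjusted p was 0.737 each in edgeR; DESeq2 called 19 genes (0.0985%), Myh4 (adjusted p 0.0028) and Tnnc2 (0.0453) among them. The fitted log2 fold changes of Myh1, Tnnc2, Tnnt3 and Tnni2 were -9.41 ± 3.68 (SE), -7.99 ± 2.87, -6.26 ± 2.68 and -5.18 ± 1.98. Untreated 4F replicate 2 carried most of this: without it they were -3.05, -3.55, -1.73 and -1.39. In that library Acta1 stood at 1480 CPM and Myh8, the perinatal myosin, at 1316 CPM, against at most 26.2 and 0.12 CPM in the other 9. It was also the highest of the 10 lungs for the slow genes Myh7 (22.9 CPM), Tnnt1 (7.24 CPM) and Tnni1 (3.13 CPM). Myh1 shares 9.19% of its 50-base windows with Myh8, so its 627 CPM there is uncertain.

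Among the slow members of lung, Tnnc1 was high where heart genes were high. Tnnc1 stood at 39.2, 1.78 and 12.6 CPM in the treated and 24.5, 7.67 and 22.2 CPM in the untreated 4F lungs, and at 7.30 and 34.0 CPM in the treated and 21.2 and 5.93 CPM in the untreated B6 lungs. Myh6, the heart myosin, stood at 171, 8.34 and 97.8 CPM in the treated and 89.7, 36.8 and 232 CPM in the untreated 4F lungs, and at 46.5, 386, 258 and 42.3 CPM in the B6 lungs in the same order. Treated 4F replicate 2 was the lowest of the 10 for both genes. Myh7 stood at 12.6, 1.47 and 5.62 CPM in the treated and 3.54, 22.9 and 14.6 CPM in the untreated 4F lungs, where the shared windows with Myh6 leave its level uncertain. Tnnt1 and Tnni1, which are not the main troponin forms of adult heart muscle, stood at 0.810 to 7.24 and 0.126 to 3.13 CPM.

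For the slow members the 4F arms of lung overlapped, with log2 fold changes of -1.82 ± 1.34 (SE) for Tnni1, -1.39 ± 0.74 for Tnnt1, -1.29 ± 0.79 for Myh7 and -0.45 ± 0.92 for Tnnc1. Without untreated 4F replicate 2 they were 0.49 for Tnni1, -0.30 for Tnnt1, -0.04 for Myh7 and -0.70 for Tnnc1. Summed cardiac markers ranged from 63.3 to 944 CPM in treated and from 233 to 813 CPM in untreated 4F lungs, and their part in these values was not tested. The 4F minus B6 difference was tested in lung as well: 0 members and 0 genes (0%) were called by edgeR and by DESeq2, and 3 members and 0.861% of genes passed an unadjusted p under 0.05. In B6 lung alone edgeR and DESeq2 called 0 genes (0%), and 0 members and 0.353% of genes passed an unadjusted p under 0.05. Of the B6 lungs, the near pair treated replicate 1 and untreated replicate 2 held little fast message (3.86 and 4.61 CPM summed over the 6 genes), and the other 2 held 92.0 and 31.9 CPM.

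**Figure D5:**
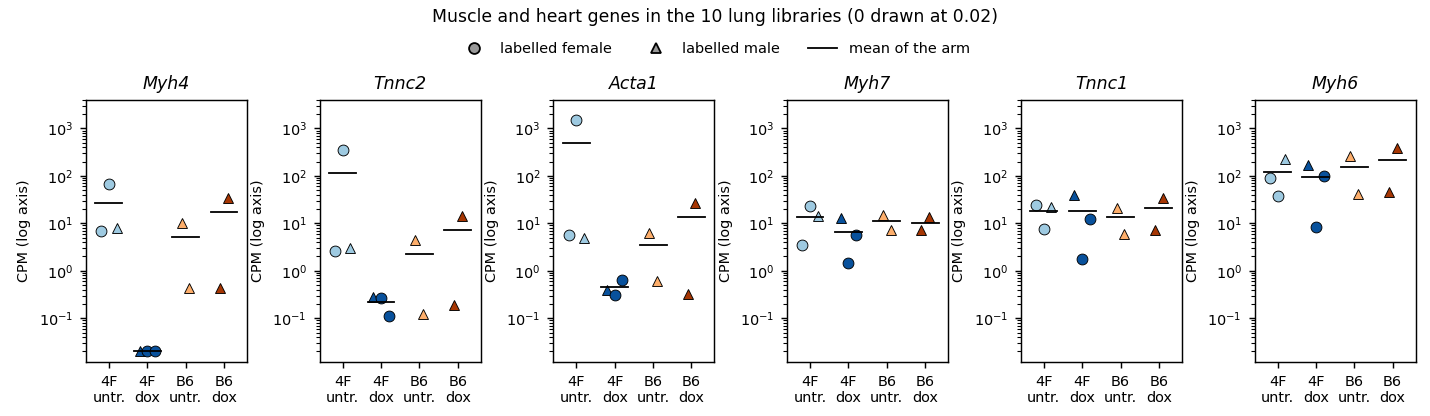
CPM (log axis, 0 drawn at 0.02) of the fast genes Myh4 and Tnnc2 with skeletal Acta1, and of Myh7 and Tnnc1 with the heart myosin Myh6, in the 10 lung libraries by arm, with circles for libraries labelled female, triangles for those labelled male and a line at the mean of each arm. The fast genes lie low in all 3 treated 4F lungs (Myh4 at 0) and in 1 lung of each B6 arm, while Myh7, Tnnc1 and Myh6 overlap between arms.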

How the data were processed

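Total RNA was extracted with RNeasy columns and sequenced from stranded total RNA libraries, per the labels' protocols. The authors deposited raw counts per Ensembl gene, not normalised, for 52636 genes and 60 libraries; each library's own table equalled its column in the series table for 60 of 60. The build is GRCm38, per the submitters' processing notes; of the aligner, the counting program, its annotation and its use of strand, the labels name none. Symbols, exon lengths and positions came from GENCODE vM21 (52489 genes matched, 147 not), and upstream sequences from RefSeq (GRCm38.p6).

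The 10 libraries of a tissue entered one model in edgeR 4.0.16 under R 4.3.3 (robust quasi-likelihood, TMM, terms for arm and sex), separately for muscle, skin and lung. Genes were kept by filterByExpr (count minimum 10, total minimum 15) and called where the adjusted p (Benjamini-Hochberg) was under 0.05. Myh2 did not pass this filter in lung; the members passed it elsewhere. CPM are counts per 1000000 of the library total, unscaled by TMM; levels between genes are per kb of exon union. DESeq2 1.42.0 and other settings were alternatives; the sex comparison, the principal transcript length and the Myh4 bound without a library were added after seeing the data. A count of 0 allows up to 3 counts of the total, which covers counting error only. Library totals were 18517963 to 43176392 counts. The fit was tried on simulated data with changes in the treated 4F arm alone and no sex or genotype differences. That trial does not show how the fit behaves with libraries that stand apart, as some did here.

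The members and lists were chosen with earlier results of these data known. All 10 members are named; of each list and contrast, up to 3 genes with the smallest p, the first gene of a marker list where it moves with a member, and the 5 genes most like the slow or fast mean. Krt5, Acta1, Ckm, Myh8, Xist, Ddx3y and Alb were named after their values were seen, as was Myl2's level. Replicates were numbered in deposit order.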

Additional observations from a re-analysis of the deposited data

Results flagged for a closer look

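Tnnt3, fast troponin T, had its treated B6 libraries on opposite sides of the untreated ones in muscle and skin. In muscle both treated libraries (24410 and 23870 CPM) lay below both untreated ones (25420 and 25940 CPM), with a fitted log2 fold change of -0.0621 ± 0.31 (SE), whereas in skin both treated libraries (18440 and 19320 CPM) lay above both untreated ones (13340 and 14610 CPM), with 0.73 ± 0.44. The difference between the tissues was not tested, and neither value was called in edgeR (adjusted p 0.978 and 0.679). With 2 libraries per arm, arms lay apart in one direction or the other for a large share of all genes (22.5% lower in muscle, 13.3% higher in skin).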

How the results depend on the processing

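No paired analysis was possible because the replicate numbers were given in deposit order and no label pairs libraries of different arms. For the 4F contrast of muscle, 0 genes were called without the sex term, with only the 4F libraries, and without untreated 4F replicate 3 and treated 4F replicate 2 together, 16 without the filter and 86 by DESeq2. DESeq2 called 14 genes in B6 muscle and 39 for the difference of effects, 609, 102 and 66 for the 4F, B6 and difference contrasts of skin, and 19 in 4F lung; without the filter 2 were called in 4F lung and 1 for the lung difference. For sex in muscle, 2862 were called by DESeq2, 283 with library totals alone, 853 without the filter, 0 with only the 4F libraries and 0 without the pair named above; in skin 303, 48, 61 and 0 in the first 4 settings. With each library left out, calls ranged from 0 to 1 in 4F muscle, 0 to 692 in 4F skin, 0 to 1 in B6 skin, 0 to 7 for the skin difference, 0 to 1 in B6 lung and for the lung difference, 5 to 2647 for sex in muscle and 0 to 63 for sex in skin. The cause of these changes was not tested.

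Directions turned as follows. In 4F muscle Myh4 went to -0.077 with library totals alone and -0.11 with 4F females only, Tnnt3 to -0.11 with 4F females only and -0.10 without the pair named above, and Tnni2 to -0.0076 without that pair. In 4F skin Myh4 went to 0.0338 without the sex term and 0.44 with 4F females only, and Tnnc1 in 4F lung to 0.0065 without the sex term. With each library left out, the ranges that cross 0 were, in 4F muscle, -0.89 to 0.66 for Myh1, -0.17 to 0.25 for Myh4 and -0.14 to 0.20 for Tnnt3. In B6 muscle they were -4.28 to 2.21 for Myh7, -1.54 to 1.75 for Tnnt1, -1.42 to 1.97 for Tnni1, -2.04 to 2.34 for Tnnc1, -0.82 to 0.27 for Myh1, -0.62 to 0.66 for Myh2 and -0.12 to 0.0066 for Tnnt3. The Tnnt1 difference of effects in muscle ranged from -0.0098 to 3.27. In 4F skin they were -0.76 to 0.45 for Myh4 and -0.021 to 0.73 for Tnni2, in B6 skin -3.72 to 0.94 for Myh7 and -1.16 to 0.14 for Myh4, and in 4F lung -1.17 to 0.33 for Tnnc1 and -2.65 to 0.49 for Tnni1. Tnnc1 in skin, the one called sex difference, was -5.93 and not called with only the 4F libraries. The 4F differences of the slow-to-fast ratios ranged from 0.37 to 2.84 and stayed within a pooled SD of the reported values. In B6 muscle the ratio differences crossed 0, from -1.68 to 1.70 for troponin T and from -1.91 to 1.66 for troponin I. They ran from -2.70 to 1.93 for troponin C and from -3.13 to 1.87 for Myh7 over the summed fast myosins.

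With 2 or 3 libraries an arm, the low slow counts of skin and lung limit what can be seen. Myh2 did not pass the filter in lung and has no value there.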

Other observations

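In kidney, liver and spleen the highest level of any fibre gene was that of Myh1 in kidney. Myh1 stood at 7.998 and 5.37 CPM in the treated and 2.98 and 4.47 CPM in the untreated 4F female kidneys, at 0 in the 4F males, and at 0 in 3 of 4 B6 males, with 0.663 CPM in untreated B6 replicate 1. In treated 4F replicate 2 and untreated 4F replicate 1, where Myh1 stood at 7.998 and 2.98 CPM, Myh4 was at 0 and Tnnt3 at 0.0462 and 0.0276 CPM, whereas in muscle Tnnt3 exceeded Myh1 in every library. Acta1 in those kidneys stood at 0.231 and 0 CPM. In treated 4F replicate 3 and untreated 4F replicate 2 the kidney differed in this. Myh1 stood there at 5.37 and 4.47 CPM, while the fast genes summed to 8.42 and 6.88 CPM, so other fast genes were counted too. Tnnc1 was counted in every kidney, at 0.859 to 3.33 CPM. No test was run on kidney.

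In liver the 4 adult myosins had 0 counts in all 10 libraries, which allows at most 0.0862 to 0.121 CPM per library. Tnnt1 was nonetheless counted in every liver (0.648 to 2.46 CPM), as was Tnnc1 (0.332 to 2.44 CPM). In spleen Tnni2 stood at 1.40 to 4.25 CPM and Tnnt1 at 1.08 to 4.25 CPM in all 10 libraries, while Myh4 was at 0 in 6 of them.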
